A study of Caenorhabditis elegans with 4 samples.

Results

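The 47 genes described here are the *C. elegans* genes whose symbol begins with *set*, *jmjd* or *hda* followed by a number, among 20181 genes of the deposited count table. They comprise 31 *set* genes, named for the SET domain of lysine methyltransferases, 8 *jmjd* genes, named for the Jumonji C domain of histone demethylases, and 8 *hda* genes, named for histone deacetylases. The symbols are those of the Ensembl annotation of the WBcel235 assembly, to which all coordinates below refer, and all 47 annotated genes that match had a row in the table. A name of this kind gives the domain family and not a measured activity, so the substrates named below are background.

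RNA was sequenced from gonads dissected from young adults of the wild-type strain N2 (2 libraries) and from entire young adults of the *glp-4(bn2)* mutant (2 libraries), each made from about 50 gonads or worms. Both groups were hatched overnight and grown on OP50 bacteria. The *bn2* allele is temperature sensitive and leaves mutants raised at the restrictive temperature with very few germ cells, but the labels give no growth temperature. The series set out to separate germline from somatic transcripts. All gonad libraries are from N2 and all whole-worm libraries from the mutant, so differences of tissue and of genotype cannot be told apart. No label states that replicate libraries derive from independent cultures. The p-values therefore reflect library-to-library spread, which may be technical.

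Methyl and acetyl groups on histone tails mark chromatin as active or silent. Methylation of lysine 4 of histone H3 (H3K4) goes with active genes, that of lysines 9 and 27 (H3K9, H3K27) with silent ones, and that of lysine 20 of histone H4 (H4K20) with chromosome condensation and with the dosage-compensated X chromosome. Methyltransferases write these marks, demethylases remove them, and deacetylases take off the acetyl groups that accompany transcription. In this worm several of these enzymes are needed for fertility over generations, and the X chromosome carries few active marks in most germ cells.

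Library totals ranged from 19538620 to 25624824 counts. Levels are CPM (counts scaled to a common library size), scaled by TMM factors, and intervals and limits from counts cover counting error only. The group labels were checked against marker genes. All 17 germ cell markers were higher in gonads, with a median whole-worm level of 1.14% of the gonad level and a range from 0.273% to 5.0%. All 8 body wall muscle and all 8 intestine markers were higher in whole worms, with gonad levels at medians of 2.49% and 0.225% of the whole-worm levels. All 6 pharynx and all 10 neuron markers were also higher in whole worms. Of 9 epidermis markers 7 were, while *lin-26* (mean 226 against 79.1 CPM) and *nhr-23* (87.1 against 5.24 CPM) were higher in gonads. Of 10 sperm markers 5 were tested, of which 4 were higher in gonads and 1 was not called. Summed over 9 markers of the somatic gonad, the gonad libraries had 91.4 and 79.2 CPM and the whole worms 219 and 251 CPM, and 1 of the 9 was at 0 in both gonad libraries. Of these 9, 1 was higher in gonads, 6 were higher in whole worms and 2 were not called, and *inx-8* alone held 68.6 and 58.0 CPM of the gonad sums. In such bulk samples, fewer cells of a type and less RNA per cell cannot be told apart.

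Most of these chromatin genes were higher in gonads, and 6 of the 9 genes higher in whole worms lay on the X chromosome. Of the 47 genes, 43 had enough counts to be tested. A gene was called higher in a group at an adjusted p under 0.05 (quasi-likelihood test of edgeR, Benjamini-Hochberg adjusted over all 13101 genes tested) and a fold of at least 2. By this rule 28 genes were higher in gonads, 9 were higher in whole worms and 6 were not called. The 28 are 65.1% of the 43, where 30.9% of all tested genes were called higher in gonads, and the 9 are 20.9%, where 53.1% of all tested genes were called higher in whole worms. The median log2 fold change (gonad minus whole worm) of the 43 was 1.64, against -1.5 over all tested genes. Genes passed the count filter through the group where they were high, so these counts describe the genes that passed.

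**Figure D1:**
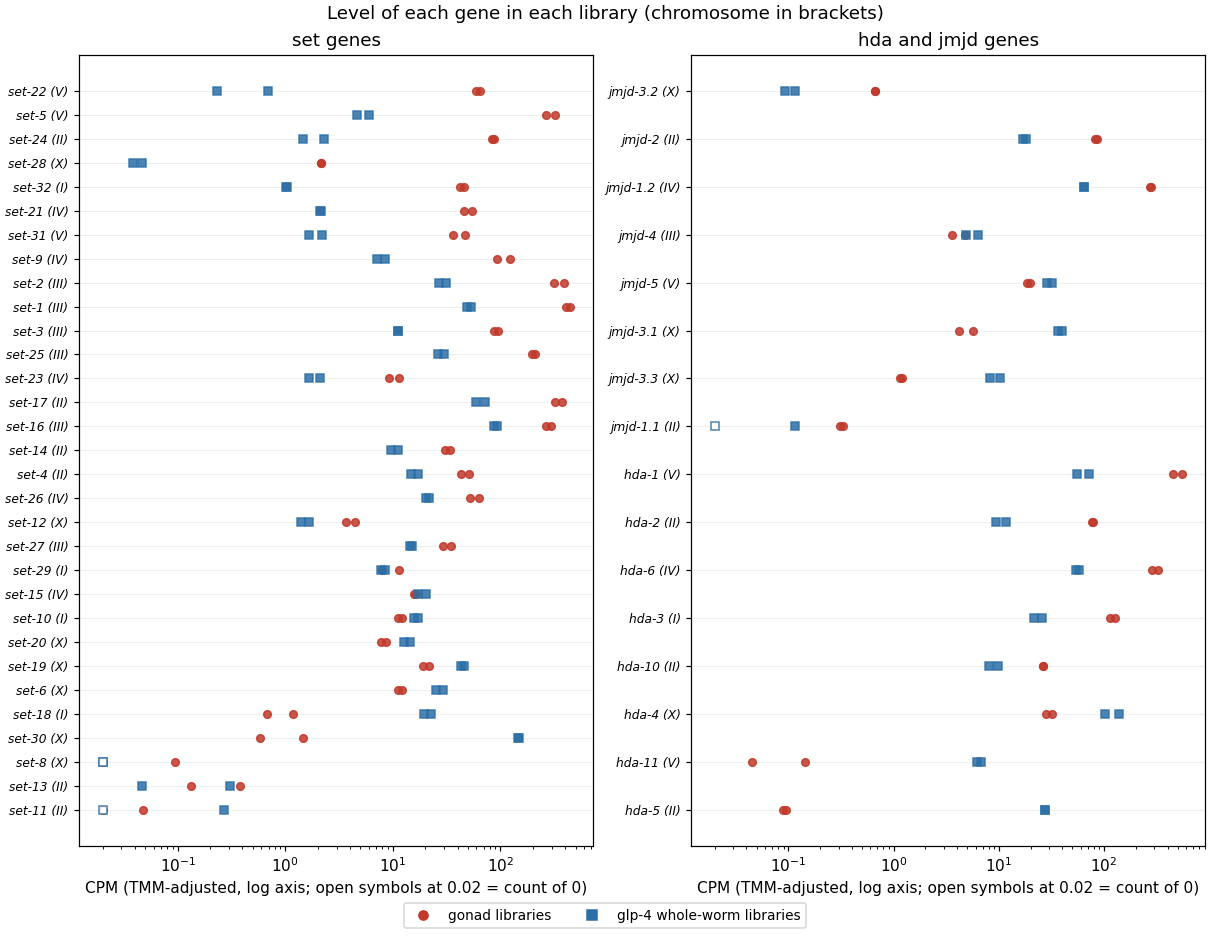
TMM-adjusted CPM (log axis) of each of the 47 genes in each of the 4 libraries, with *set* genes on the left and *hda* and *jmjd* genes on the right. Circles are gonad libraries, squares are *glp-4* whole-worm libraries and open symbols are counts of 0, drawn at 0.02. Replicates lie close together for most genes. In 28 of the 43 tested genes both gonad libraries lie above both whole-worm libraries, and in 14 the reverse holds. How often the libraries separate in this way over all tested genes was not computed, so the separation is not shown to be particular to these genes.

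The H3K4 methyltransferase genes were all higher in gonads, a call made for 30.9% of all tested genes. The gene *set-2* (WBGene00004782, chromosome III, 4922427 to 4930204), which encodes the catalytic subunit of the SET1 or COMPASS complex, had 316 and 394 CPM in gonads against 27.1 and 31.3 CPM in whole worms. Its log2 fold change was 3.60 ± 0.16 (SE, adjusted p = 1.17e-14). The MLL-related *set-16* (WBGene00011729, chromosome III, 13643916 to 13656637) had 297 and 265 CPM in gonads against 88.0 and 92.4 CPM in whole worms, a smaller log2 fold change of 1.64 ± 0.13. By CPM, *set-16* was the most abundant of all gonad-high genes in whole worms. The gene *set-17* (WBGene00011887, chromosome II, 8939054 to 8940488), related to the meiotic methyltransferase PRDM9 of mammals and known for its work in male germ cells of the worm, had 321 and 372 CPM in gonads against 58.8 and 72.2 CPM in whole worms (log2 fold change 2.4 ± 0.15).

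Of 4 tested genes for methylation of H3K9 and of lysine 23 of H3, the 3 autosomal ones were higher in gonads. The 1 X-linked gene was higher in whole worms. Over all tested genes these calls were made for 35.0% of autosomal and 79.9% of X-linked genes. The gene *set-25* (WBGene00012802, chromosome III, 13283824 to 13293090), whose product trimethylates H3K9, had 196 and 212 CPM in gonads against 26.1 and 29.8 CPM in whole worms. Genes for heritable small-RNA-directed silencing were lower in level but differed more steeply. The gene *set-32* (WBGene00008062, chromosome I, 9519244 to 9521275) had 42.2 and 46.2 CPM against 1.02 and 1.04 CPM, and *set-21* (WBGene00021282, chromosome IV, 4390844 to 4393406), which acts with it, had 54.2 and 45.8 CPM against 2.08 and 2.13 CPM. These are log2 fold changes of 2.87 ± 0.14 for *set-25*, 5.41 ± 0.22 for *set-32* and 4.56 ± 0.20 for *set-21* (largest adjusted p = 6.41e-14, for *set-25*). The X-linked *set-6* (WBGene00008206, X, 11970077 to 11974679), related to the H3K9 methyltransferases of the SUV39 type, was the exception, with 12.1 and 11.1 CPM in gonads against 25 and 29.6 CPM in whole worms (log2 fold change -1.24 ± 0.17). The last gene of this group, *set-11*, related to G9a, had 1 count in a gonad library and 7 in a whole-worm library and was not tested.

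Both H4K20 methyltransferase genes were higher in gonads, as were 30.9% of all tested genes. The gene *set-1* (WBGene00004781, chromosome III, 6450792 to 6452378) encodes the enzyme that adds the first methyl group, and *set-4* (WBGene00016313, chromosome II, 6329838 to 6331341) encodes the one that adds further groups. Levels of *set-1* were 406 and 442 CPM in gonads against 49.4 and 53.5 CPM in whole worms (log2 fold change 3.04 ± 0.14, adjusted p = 3.94e-14). Those of *set-4* were 51.6 and 43.5 CPM against 14.6 and 17.1 CPM, a log2 fold change of 1.58 ± 0.16. In both genes the groups stood apart by far more than the replicates did. The exons of *set-1* share 33.5% of their length with *anr-1* on the opposite strand. No source used here says that strand was kept, so reads from the shared part cannot be assigned to either gene.

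The closely related genes *set-9* and *set-26* encode proteins with a PHD finger and a SET domain that bind methylated H3K4 and act in fertility and lifespan. The gene *set-9* (WBGene00017482, chromosome IV, 4307896 to 4317140) had 122 and 93.8 CPM in gonads against 8.52 and 7.08 CPM in whole worms. Its relative *set-26* (WBGene00013106, chromosome IV, 16646791 to 16655883) had 63.2 and 52.2 CPM against 20.2 and 21.9 CPM. Log2 fold changes were 3.79 ± 0.17 and 1.45 ± 0.15, and the difference between these folds was not tested. Per length of exon, *set-9* made up 65.3% and 63.7% of the level of the pair in gonads and 29.2% and 24.0% in whole worms, so the more abundant gene of the pair was *set-9* in gonads and *set-26* in whole worms. Reads that fit both genes may have been lost or split in counting, and the values of each are uncertain to that extent.

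Genes of the SMYD family, whose SET domain is interrupted by a zinc finger of the MYND type, included the steepest whole-worm genes of the *set* class. The X-linked *set-30* (WBGene00022499, X, 4999270 to 5003516) had 148 and 147 CPM in whole worms but 1.47 and 0.581 CPM in gonads (log2 fold change -7.17 ± 0.24, adjusted p = 2.05e-16), or -7.93 without gonad replicate 1. The gene *set-18* (WBGene00044070, chromosome I, 10590703 to 10593968), known for its expression in muscle, had 19.7 and 22.8 CPM against 1.19 and 0.670 CPM (log2 fold change -4.52 ± 0.27). Gonad levels were 0.696% of the whole-worm level for *set-30* and 4.37% for *set-18*. The 8 body wall muscle markers ranged from 1.09% to 7.82%, so *set-18* lay within their range and *set-30* below it. The value of *set-30* lay within the intestine range (0.0831% to 1.52%) and that of *set-18* above it. Among markers with at least 10 CPM in whole worms, the pharynx (0.12% to 9.76%), neuron (0.24% to 14.1%) and epidermis (0% to 286%) ranges held both values. The part of somatic tissue carried along with the gonads in these values was not tested. Another gene of the family, *set-14*, went the other way, with 30.4 and 33.9 CPM in gonads against 11.1 and 9.71 CPM in whole worms (1.63 ± 0.17). The gene *set-10*, with 12.1 and 11.2 CPM in gonads against 17 and 15.6 CPM in whole worms, stayed under the fold minimum. The exons of *set-18* share 18.5% of their length with an oppositely oriented gene.

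The steepest gonad genes were *set* genes for which no substrate is named here. The gene *set-22* (WBGene00012527, chromosome V, 10436912 to 10441203) had 59.1 and 65.1 CPM in gonads and 5 and 18 counts in whole worms (0.232 and 0.697 CPM). Its log2 fold change was 6.99 ± 0.27, or 8.01 when whole-worm replicate 2 was left out and 6.21 with limma on the deposited table. Levels of *set-5* (WBGene00008145, chromosome V, 14698966 to 14707601) were 267 and 324 CPM against 6.02 and 4.68 CPM (5.79 ± 0.18, adjusted p = 5.80e-17), and those of *set-24* (WBGene00012845, chromosome II, 12114971 to 12130968) were 83.4 and 87.0 CPM against 2.32 and 1.47 CPM (5.51 ± 0.20). With *set-32* and the X-linked *set-28*, these 3 genes had whole-worm levels between 0.747% and 2.34% of their gonad levels, within the range of the germ cell markers. The other 23 gonad-high genes of the 3 families had whole-worm levels from 4.21% to 45.8% of the gonad level, and only *set-21* and *set-31*, at 4.21% and 4.67%, lay within that range.

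Of the remaining *set* genes, the autosomal *set-31* (46.6 and 36.3 CPM in gonads against 1.67 and 2.21 CPM in whole worms), *set-3* (86.8 and 96.0 against 11.2 and 11.2 CPM), *set-23* and *set-27* were higher in gonads, with log2 fold changes of 4.40, 3.03, 2.45 and 1.13. The call of *set-27* rested on the fold minimum and was lost with 2 of the other settings. On the X chromosome *set-19* and *set-20* lie side by side on the same strand. The gene *set-19* had 21.6 and 19.2 CPM in gonads against 42.9 and 45.6 CPM in whole worms (log2 fold change -1.12 ± 0.15), while *set-20* had 7.74 and 8.66 CPM against 14.3 and 12.6 CPM and differed by -0.71 ± 0.19, under the fold minimum. In *set-15* and *set-29* the 95% intervals of the log2 difference ran from -0.58 to 0.14 and from -0.20 to 0.70. The genes *set-13* and *set-8* had at most 8 counts in any library and were not tested.

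Of 7 tested *jmjd* genes 3 were higher in gonads (42.9%), 2 were higher in whole worms (28.6%) and 2 were not called. All tested genes gave 30.9% and 53.1% for the same calls. The gene *jmjd-1.2* (WBGene00017920, chromosome IV, 4660991 to 4665212), which encodes a KDM7-type demethylase of H3K9 and H3K27 known from the mitochondrial stress response, had 279 and 273 CPM in gonads against 64.4 and 63.9 CPM in whole worms (log2 fold change 2.11 ± 0.13). The KDM4-type *jmjd-2* (WBGene00012982, chromosome II, 14234979 to 14243603), a demethylase of H3K9 and of lysine 36 of H3, had 85.9 and 82.6 CPM against 16.8 and 18.1 CPM (2.27 ± 0.14). Both autosomal genes were higher in gonads with adjusted p = 4.10e-12 and 5.17e-12. The *jmjd-1.2* relative *jmjd-1.1* had 7 counts in each gonad library and 0 and 3 in whole worms and was not tested.

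All 3 genes of the H3K27 demethylase family in this set lie on X. The gene *jmjd-3.1* (WBGene00017571, X, 8571047 to 8575451), known for stress responses and a cell fate change in somatic cells, had 36.1 and 40.2 CPM in whole worms but 4.18 and 5.67 CPM in gonads (log2 fold change -2.95 ± 0.19). Its relative *jmjd-3.3* (WBGene00007813, X, 13436422 to 13441438) had 8.20 and 10.3 CPM against 1.14 and 1.21 CPM (-2.97 ± 0.28). The sizes of these differences were alike. The gene *jmjd-3.2* (WBGene00009089, X, 14448210 to 14453567) was called higher in gonads, at 14 and 15 counts against 2 and 3. The ratio of its summed levels was 6.33 (exact 95% limits from counting 2.42 to 20.9), all 4 libraries were under 1 CPM, and limma on the deposited table gave a log2 fold change of 1.09. The other Jumonji genes *jmjd-5* (19.9 and 18.6 CPM in gonads against 31.7 and 28.6 CPM in whole worms) and *jmjd-4* (3.61 and 4.78 against 6.30 and 4.88 CPM) were not called, with 95% intervals of the log2 difference from -0.98 to -0.32 and from -0.94 to 0.12. Exons of *jmjd-4* share 12% of their length with another gene on the same strand.

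Among deacetylases, all 3 class I genes were higher in gonads, a call made for 30.9% of all tested genes. The gene *hda-1* (WBGene00001834, chromosome V, 14525389 to 14527411), the deacetylase of the NuRD repressor complex and essential in embryos, had 447 and 549.8 CPM in gonads against 55.0 and 71.7 CPM in whole worms (log2 fold change 2.97 ± 0.16, adjusted p = 5.52e-13). Levels were 77.4 and 77.9 CPM against 9.36 and 11.7 CPM for *hda-2* (WBGene00001835, chromosome II, 8020780 to 8022561; 2.88 ± 0.16) and 114.5 and 127 CPM against 21.4 and 25.8 CPM for *hda-3* (WBGene00001836, chromosome I, 11912793 to 11917712; 2.36 ± 0.14). Gonad levels of these genes differed from each other, while their folds lay between 5.12 and 7.86.

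Class II genes were called in both directions, 2 higher in gonads and 2 in whole worms (50% each), beside 30.9% and 53.1% of all tested genes. The HDAC6-type *hda-6* (WBGene00018319, chromosome IV, 5356543 to 5364306), whose mammalian relative deacetylates tubulin, had 285 and 326 CPM in gonads against 53.6 and 57.7 CPM in whole worms (log2 fold change 2.46 ± 0.14). The gene *hda-10* (WBGene00001838, chromosome II, 13882705 to 13888034) had 26 CPM in both gonad libraries against 9.77 and 8.09 CPM (1.54 ± 0.18). In contrast, *hda-4* (WBGene00001837, X, 16729559 to 16744767), a class IIa deacetylase that works with MEF2 factors in neurons, had 103 and 137 CPM in whole worms but 27.8 and 32.2 CPM in gonads (log2 fold change -2.0 ± 0.15). Its gonad level was 25% of its whole-worm level.

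The remaining deacetylases were close to the detection limit in gonads. The class II gene *hda-5* (WBGene00009663, chromosome II, 11799037 to 11802409) had 595 and 701 counts in whole worms (27.6 and 27.1 CPM) and 2 counts in each gonad library. The ratio of whole-worm to gonad level was 297 (exact 95% limits from counting 116 to 1091), and the fitted log2 fold change was -8.13 ± 0.34. The class IV gene *hda-11* (WBGene00007953, chromosome V, 10526184 to 10528444) had 133 and 175 counts in whole worms and 3 and 1 in gonads, a ratio of 70.6 with an interval from 27.3 to 261. Its fitted log2 fold change of -6.05 ± 0.47 was -6.98 when gonad replicate 1 was left out and -5.44 when gonad replicate 2 was. With limma on the deposited log2 table, whose values include an added 8, the log2 fold changes were -6.06 for *hda-5* and -4.03 for *hda-11*. The gonad level of *hda-5* was 0.337% of the whole-worm level, below all 8 body wall muscle markers. It lay within the range of the intestine markers (0.0831% to 1.52%). Among markers with at least 10 CPM in whole worms, the pharynx (0.12% to 9.76%), neuron (0.24% to 14.1%) and epidermis (0% to 286%) ranges also held it. These ranges therefore single out no tissue.

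Per length of exon, the make-up of each class differed between the groups. Summed over the 8 deacetylase genes, the level was 503 ± 54.4 CPM per kb (SD, n = 2) in gonads and 132 ± 16.3 CPM per kb in whole worms. Class I genes made up 76.4% and 77.3% of it in gonads and 39.6% and 42.2% in whole worms. The genes *hda-4* and *hda-5* together took 1.66% and 1.65% in gonads and 37.9% and 38.3% in whole worms. In the *jmjd* class *jmjd-1.2* led both groups, with a mean of 67.5% in gonads and 34.3% in whole worms, and the *jmjd-3* genes took 1.3% and 1.64% in gonads and 20.3% and 23.7% in whole worms. The shares of replicates lay close together and those of the groups far apart.

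**Figure D2:**
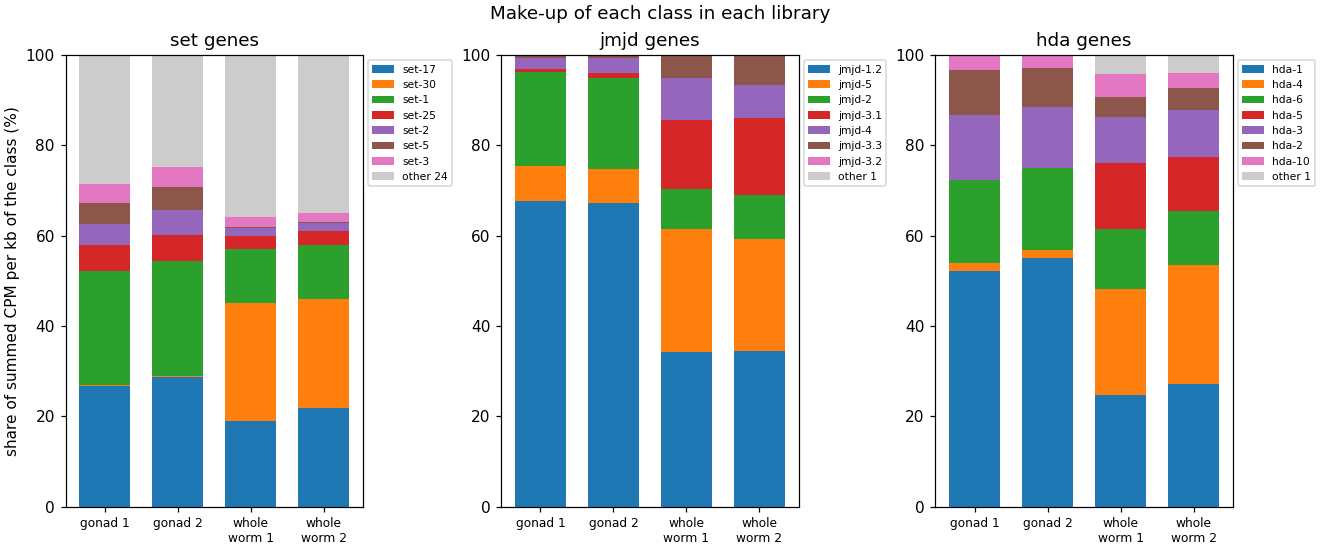
Share (%) of the summed level per length (CPM per kb of exon) of each class taken by its genes in each library, with the 7 genes of highest share named and the others pooled in grey. The orange *hda-4* and red *hda-5* segments hold 37.9% and 38.3% of the *hda* level in the whole-worm libraries and under 2% in gonads.

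Ranked per length, *set-17* (352 ± 36.5 CPM per kb, SD, n = 2), *set-1* (321 ± 19.3) and *hda-1* (271 ± 39.6) led the 47 genes in gonads, and *set-17* and *set-1* differed by less than the spread between replicates. The next, *hda-6* and *jmjd-1.2*, were at 92.1 and 89.7 CPM per kb. In whole worms *set-30* came first at 81.2 ± 0.616 CPM per kb, ahead of *set-17* (66.5 ± 9.63), *set-1* (38.9 ± 2.15), *hda-1* (34.5 ± 6.40) and *hda-4* (33.1 ± 6.77). The last 3 did not differ beyond their spread per exon length. Per kb of coding sequence *set-1* stood above them, at 70.9 ± 3.92 CPM per kb in whole worms against 45.8 ± 8.51 for *hda-1* and 46.0 ± 9.41 for *hda-4*. In gonads it then passed *set-17*, at 584 ± 35.2 against 416 ± 43.2 CPM per kb of coding sequence. The order of *set-1* and *set-17* in gonads thus depended on the length used (1322 bp of exon and 726 bp of coding sequence for *set-1*). Counts of *set-1* may also include reads from *anr-1*, with which it shares 33.5% of its exon length. The rank of *set-30* among the 47 was 38 in gonads, and *hda-4* ranked 26 there. Summed over all *set* genes, the level was 1263 ± 66.9 CPM per kb in gonads and 325 ± 15.9 CPM per kb in whole worms.

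Calls went mostly to gonads among autosomal genes and mostly to whole worms among X-linked ones. Of 33 tested autosomal genes 25 were higher in gonads (75.8%) and 3 in whole worms (9.09%), namely *hda-5*, *hda-11* and *set-18*. Of 10 tested X-linked genes 3 were higher in gonads and 6 in whole worms. Over all tested genes the same calls were made for 35.0% and 48.3% of 10778 autosomal genes and for 7.73% and 79.9% of 1966 X-linked genes. The lower share of gonad calls on X than on autosomes was thus also seen over all genes, and no test of the 47 was made. By autosome, calls in gonads and in whole worms were made for 2 and 1 of 5 tested genes on chromosome I (44.4% and 35.1% of all genes there), 7 and 1 of 8 on II (35.9% and 48.4%) and 6 and 0 of 7 on III (40.3% and 38.4%). They were made for 6 and 0 of 7 on IV (34.0% and 48.9%) and 4 and 1 of 6 on V (23.1% and 66.6%). On each autosome except I the share called higher in gonads was above that of all genes, at 5 to 8 tested genes a chromosome. Median log2 fold changes were 2.36 for the 33 autosomal and -1.18 for the 10 X-linked genes, beside -0.71 and -4.33 for all autosomal and all X-linked genes tested.

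**Figure D3:**
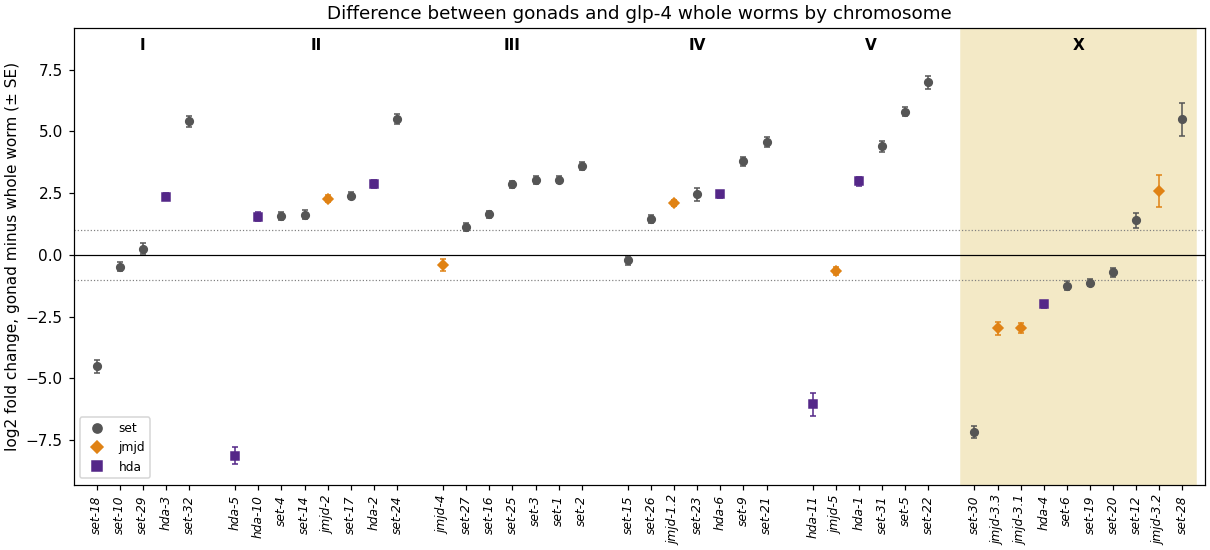
Log2 fold change (gonad minus whole worm, ± SE) of the 43 tested genes, ordered by size within each chromosome, with the X chromosome shaded and dotted lines at the 2-fold minimum. Autosomal genes lie mostly above 0, with *hda-5*, *hda-11* and *set-18* far below, and 7 of 10 X-linked genes lie below 0.

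X-linked genes that were higher in gonads had low levels there. The gene *set-28* (WBGene00022224, X, 214580 to 215588) had 45 and 48 counts in gonads and 1 in each whole-worm library, a ratio of 50.8 (exact 95% limits from counting 13.7 to 425). Its fitted log2 fold change was 5.49 ± 0.66, or 2.59 with limma on the deposited table. The gene *set-12* (WBGene00019584, X, 7733334 to 7736271) had 4.46 and 3.71 CPM in gonads against 1.39 and 1.66 CPM in whole worms (log2 fold change 1.41 ± 0.31, adjusted p = 2.19e-04). With *jmjd-3.2*, the mean gonad levels of these 3 genes ran from 0.667 to 4.08 CPM, whereas the 25 autosomal genes called higher in gonads ran from 10.4 to 498 CPM. The highest gonad level of any of the 11 X-linked genes was that of *hda-4*, which was called higher in whole worms. Summed per length, the 11 X-linked genes held 1.66% and 1.52% of the level of all 47 in gonads and 30.6% and 30.4% in whole worms. Without *set-30* these shares were 1.56% ± 0.0792 (SD, n = 2) in gonads and 17.5% ± 0.867 in whole worms. The share of X-linked genes in the level of all genes was not computed, so this contrast is not shown to be particular to these genes. Of all X-linked genes tested, 79.9% were called higher in whole worms.

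Related chromatin genes were read from 7 lists of partner subunits, other enzymes and readers, of which 79 genes were tested. Of these, 59 were higher in gonads (74.7%), 9 were higher in whole worms (11.4%) and 11 were not called, with a median log2 fold change of 2.33. Over all tested genes these calls were made for 30.9% and 53.1%. On X, 3 of 10 tested list genes were higher in gonads and 4 in whole worms, beside 7.73% and 79.9% of all X-linked genes tested. On autosomes 56 of 69 (81.2%) and 5 of 69 (7.25%) were, beside 35.0% and 48.3% of all autosomal genes tested. A place on a list gives no measured activity. Counts by list were 8 higher in gonads and 1 in whole worms of 11 H3K4 complex subunits. They were 12 and 2 of 15 genes on the list of other methyltransferases and 5 and 0 of 7 on that of other demethylases. Among partners of deacetylases they were 10 and 1 of 13, among acetyltransferases and partners 10 and 2 of 14, among readers and anchors of methylated lysines 12 and 2 of 15, and among sirtuins 2 and 1 of 4.

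Subunits of H3K4 methylation complexes included members that went opposite ways. The WDR5-related *wdr-5.3* had 274 and 345 CPM in gonads against 2.69 and 2.32 CPM in whole worms (log2 fold change 6.95 ± 0.19), while the X-linked *wdr-5.2* had 11.9 and 13.6 CPM against 41.7 and 45.4 CPM (-1.77 ± 0.16). The H3K36 methyltransferase gene *mes-4* had the largest gonad fold among other methyltransferase genes with at least 10 CPM, at 366 and 414 CPM against 10.2 and 13.3 CPM, and the arginine methyltransferase-related *prmt-6* had the largest whole-worm fold, at 1 count over both libraries against 710 in whole worms (ratio 651, exact 95% counting interval 116 to 25730). The H3K4 demethylase gene *rbr-2* had the largest gonad fold of the other demethylase genes (log2 fold change 3.21 ± 0.16), at 536 and 627 CPM against 56.3 and 69.3 CPM.

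Among deacetylase partners, the histone-binding NuRD subunit gene *lin-53* had 366 and 368 CPM in gonads against 24.5 and 23.5 CPM in whole worms, and the X-linked NuRD remodeller gene *chd-3* had 82.0 and 66.3 CPM against 145 and 160.0 CPM (-1.04 ± 0.14). Among sirtuins, deacetylases that need NAD, *sir-2.1* had 157 and 147 CPM in gonads against 40.7 and 40.4 CPM, and the X-linked mitochondrial sirtuin gene *sir-2.2* had 0.475 and 0.536 CPM against 18.9 and 13.8 CPM. The steepest gonad gene of the acetyltransferase list, *gna-2* (log2 fold change 6.22 ± 0.19), makes a sugar precursor of the eggshell and does not act on histones. Without it 9 of 13 genes were higher in gonads. The CBP-related *cbp-2* had 899 counts in whole worms and 3 in gonads, a ratio of 275 with an interval from 93.7 to 1334. It lies almost wholly within the span of *cbp-3* (chromosome III, 9913993 to 9924768), the other whole-worm call of this list. The 2 calls may therefore not be separate signals, and the exon overlap of these genes was not computed. Among chromodomain readers *cec-2* (3.91 ± 0.19) was higher in gonads and *cec-1* (-2.27 ± 0.18) higher in whole worms.

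**Figure D4:**
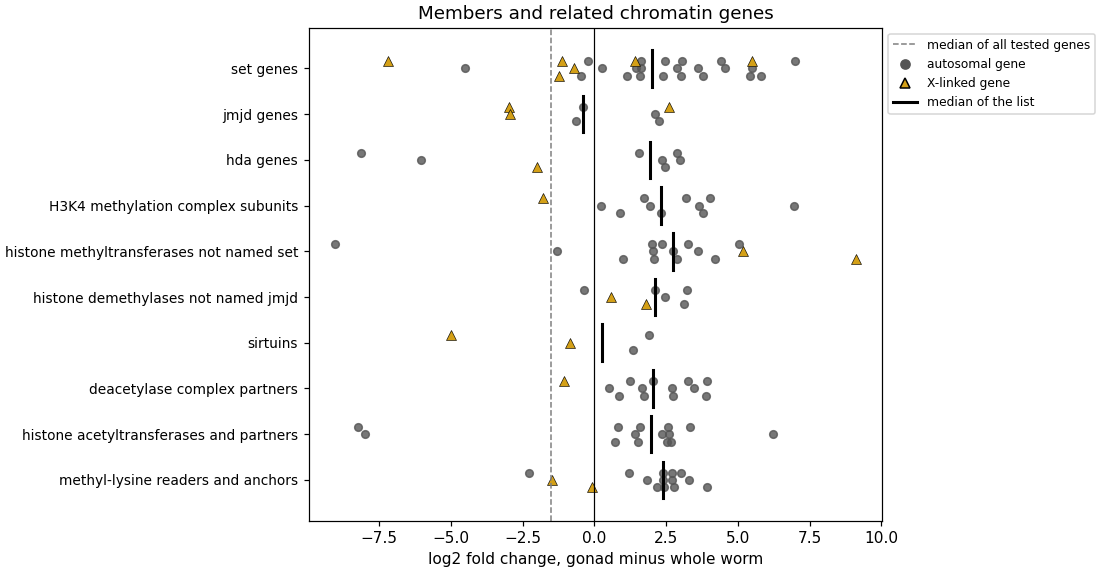
Log2 fold change (gonad minus whole worm) of each tested gene of the 3 classes and of the 7 lists, with circles for autosomal and triangles for X-linked genes. Short black bars are list medians and the dashed line is the median of all tested genes (-1.5), and the medians of 9 of the 10 lists lie above 0.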

How the data were processed

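The authors deposited whole-number counts per gene and a normalized table on a log2 scale, per the file headers and values. Each normalized value is the log2 of a library-size-scaled count to which 8 was added, within 5e-05. Which aligner, counter and build the authors used is not given in the sources used here. Of 20182 rows, 1 repeated the counts of another and was left out, and 19513 of the 20181 others matched the Ensembl WBcel235 annotation, which gave symbols, coordinates and exon lengths. Counts were tested with edgeR 4.0.16 in R 4.3.3 (TMM, filterByExpr with minimum count 10 and total 15, robust quasi-likelihood fit, group as the only term), with Benjamini-Hochberg adjustment over all genes tested. The fit was tested on 2 sets of simulated counts for this comparison (12658 and 12660 genes tested). At an adjusted p under 0.05 it recovered 72% and 68% of genes changed 2-fold and 94% and 90% of those changed 4-fold, with 9 and 3 false calls. In the simulated sets few genes were changed, evenly in both directions. In the data most tested genes were called, and more of them in whole worms. The simulated figures therefore do not cover a comparison in which most genes differ, as here. Standard errors come from the F statistic. Alternatives used limma 3.58.1 and DESeq2 1.42.0. Between replicates a chi-square test of counts gave 18.9 (gonads) and 16.9 (whole worms) per degree of freedom, so each library counts once. The genes and lists were chosen with earlier results of these data known. All *jmjd* and *hda* genes, *set* genes with a known role and the 4 other *set* genes with the largest called difference in each direction (1 existed in whole worms) were to be named, and per list the steepest called gene in each direction with at least 10 CPM. Other genes were named after their values were seen. A planned comparison of protein sequences was not made here.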

Additional observations from a re-analysis of the deposited data

How the results depend on the processing

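The calls of 42 of the 43 tested genes held under all 11 alternatives in which each gene could be tested (RLE factors, library totals, DESeq2, no filter, a 1 CPM filter, limma on the deposited log2 table, a replicate block and each library left out). The exception, *set-27*, fell below the fold minimum with library totals (0.97) and with limma (0.95), and no gene changed direction. Over all alternatives and call rules, between 27 and 28 genes were higher in gonads and between 8 and 12 in whole worms, the 12 without a fold minimum. Library totals moved the median of all genes by -0.15 and limma by -0.11 on the log2 scale. With limma 5 called genes moved by over 1.5-fold (*hda-5*, *hda-11*, *jmjd-3.2*, *set-22* and *set-28*), all toward 0. With coding length in place of exon length, the share of *hda-1* was 57.6% in gonads and 27.9% in whole worms, that of *set-17* in gonads 24.3%, that of *jmjd-1.2* in whole worms 33.9% and that of *set-30* in whole worms 21.5%. The replicate numbers are shared by the groups, but no label says that they pair libraries (correlation of deviations 0.089 across genes). With the replicate block 28 genes were higher in gonads and 9 in whole worms. Fits without 1 library assume that the lone library varies like the others. Counts limit *set-28*, *jmjd-3.2*, *hda-5*, *hda-11* and the 4 untested genes, where 3 counts correspond to 0.117 to 0.154 CPM.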
